A study of Danio rerio with 6 samples.

Results

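The genes described are 9 zebrafish genes of the epicardium and its epithelial character, called the members here: the keratin genes krt4, krt8, krt15 and krt94, the transcription factor genes tcf21, wt1a and wt1b, the retinoic acid synthesis gene aldh1a2 and the glutathione S-transferase gene gstm.3. They were taken by exact symbol from tables of 25281 genes, and all 9 were present. The epicardium is the mesothelial cell layer that covers the heart. tcf21, wt1a and wt1b are used as its defining transcription factor genes in zebrafish, and aldh1a2 encodes the retinaldehyde dehydrogenase that makes retinoic acid there. Keratins are the intermediate filament proteins of epithelia; a filament is built from pairs of a type I and a type II keratin, krt8 pairing with a krt18 in simple epithelia.

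RNA was sequenced from sorted cells of the atrioventricular canal, which joins atrium and ventricle and carries the valves, of adult fish aged 4 to 8 months, in 3 libraries of a GFP-positive and 3 of a GFP-negative fraction. All fish carried the same transgenes: Tg(myl7:GAL4db-TCFΔC-2A-mCherry), in which the cardiomyocyte promoter of myl7 drives a GAL4-TCF fusion and mCherry; Tg(UAS:EGFP), which answers to GAL4 and reports β-catenin activity; and Tg(myl7:NLS-mCherry), a nuclear cardiomyocyte label. The labels call the GFP-positive fraction β-cat ON and the GFP-negative fraction β-cat OFF cardiomyocytes, but give the GFP-negative libraries an mCherry- EGFP+ gate, which goes against their titles, so the gate of that fraction is not settled. Whether each replicate was a fish or a sort of its own is not stated, so a p-value here measures the spread between libraries alone, and that spread may be technical.

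Total counts were 14783352 to 19750914 per library. Mitochondrially encoded genes took 11.9% to 15.7% of the counts of GFP-negative and 35.6% to 44.9% of GFP-positive libraries. Of the 13490 genes tested, 4 to 66 had no count in a GFP-negative library and 725 to 1270 in a GFP-positive one, the most in GFP-positive replicate 3. Cardiomyocyte markers were abundant in all 6 libraries, myl7 standing at 24721 to 34694 CPM (counts per 1000000 counts, with TMM scaling) in GFP-negative and 12635 to 15741 CPM in GFP-positive libraries. Levels are CPM without a correction for gene length, so they are compared between libraries and not between genes.

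The 4 member keratins, tcf21, aldh1a2 and gstm.3 rose together in the GFP-positive libraries, by 3.54-fold to 5.79-fold. The Wilms tumour factor genes had no such call: wt1b did not pass the test, and of the counts of wt1a 29 lay in GFP-negative and 3 in GFP-positive libraries. Of 8 members with enough counts to be tested, 7 rose, 0 fell and 1 did not pass (edgeR quasi-likelihood test, adjusted p under 0.05 over all genes tested), where 2.08% of all genes tested were called higher and 2.13% lower (280 and 288 genes, and 196 and 507 without a composition factor). For these 7 genes the lowest GFP-positive library was above the highest GFP-negative library, which held for 12.1% of all genes tested. The 9 genes were chosen with earlier results of these data known, so the count is a description of them. Leaving out GFP-negative replicate 1, 2 or 3 left 3, 4 or 2 members called higher, and leaving out GFP-positive replicate 1, 2 or 3 left 5, 4 or 7; the log2 fold changes of the 8 tested members were positive in all of these fits.

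**Figure D1:**
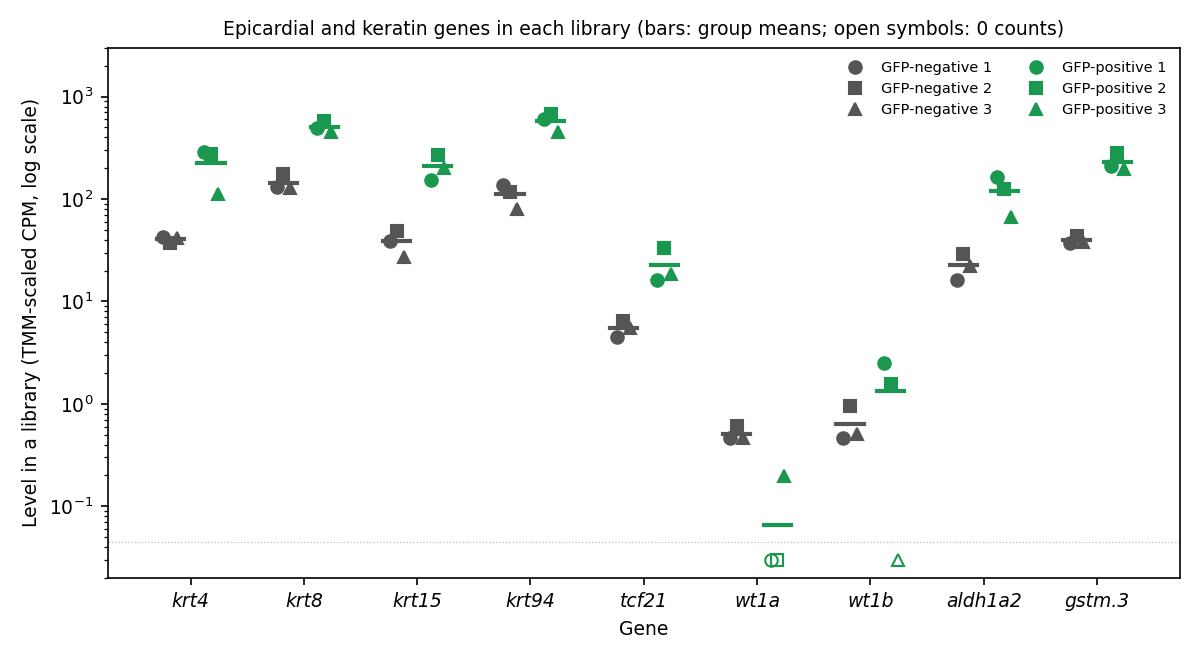
TMM-scaled CPM (log scale) of the 9 genes in each of 3 GFP-negative (grey) and 3 GFP-positive (green) libraries, with group means as bars and open symbols for 0 counts. The groups are apart for 7 genes with the GFP-positive libraries higher, overlap for wt1b, and are apart with the GFP-positive libraries lower for wt1a, which has 29 and 3 counts.

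The type II keratin genes both rose. krt8 (ENSDARG00000058358), the keratin of simple epithelia, stood at 130, 175 and 127 CPM in GFP-negative replicates 1, 2 and 3 and at 492, 581 and 455 CPM in GFP-positive replicates 1, 2 and 3. The lowest GFP-positive library was thus above the highest GFP-negative one by more than the spread within either group. krt8 rose 3.54-fold (log2 fold change 1.83 ± 0.20 SE, edgeR adjusted p = 0.00833), from a mean of 144 ± 27.0 to 510 ± 64.9 CPM (SD, n = 3).

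krt4 (ENSDARG00000017624), a type II keratin known from zebrafish surface epithelia, stood at 42.9, 37.1 and 41.2 CPM in the GFP-negative libraries and at 288, 275 and 111 CPM in the GFP-positive libraries. GFP-positive replicate 3 was the lowest of its group and still above all GFP-negative libraries. krt4 rose 5.56-fold (log2 fold change 2.47 ± 0.36, edgeR adjusted p = 0.0180). Without GFP-positive replicate 3 the log2 fold change was 2.79 (adjusted p = 0.00772). The call was lost without GFP-negative replicates 1, 2 and 3 (adjusted p = 0.0865, 0.0636 and 0.0957) and without GFP-positive replicate 2 (0.0630), and that of krt8 without GFP-negative replicate 3 (0.0559).

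The type I keratin genes krt15 and krt94 rose by similar amounts. krt94 (ENSDARG00000044975) stood at 136, 118 and 80.1 CPM in the GFP-negative and at 606, 679 and 448 CPM in the GFP-positive libraries, and rose 5.19-fold (log2 fold change 2.37 ± 0.26, edgeR adjusted p = 0.00833). krt15 (ENSDARG00000036840) stood at 39.2, 49.1 and 27.3 CPM and at 155, 272 and 202 CPM, and rose 5.44-fold (2.44 ± 0.30, adjusted p = 0.0112). The groups did not overlap for either gene. GFP-positive replicate 2 was the highest library for both, while the lowest GFP-positive library was replicate 3 for krt94 and replicate 1 for krt15. The krt94 call held in all 15 alternative fits; that of krt15 was lost without GFP-negative replicate 1 (adjusted p = 0.0760) and replicate 3 (0.0559).

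Among the epicardial transcription factor genes, tcf21 rose. tcf21 (ENSDARG00000036869), a basic helix-loop-helix factor gene of epicardium and its fibroblast derivatives, had 68, 128 and 120 counts in the GFP-negative libraries and 208, 516 and 285 in the GFP-positive libraries, or 4.50, 6.42 and 5.54 CPM against 16.1, 33.2 and 18.5 CPM. All GFP-positive libraries were above all GFP-negative ones, and GFP-positive replicate 2 stood above the other two of its group. The change was 4.12-fold (log2 fold change 2.04 ± 0.43, edgeR adjusted p = 0.0448), close to the threshold. The call was lost in 8 of 15 alternative fits, among them those without GFP-negative replicates 1, 2 and 3 (adjusted p = 0.223, 0.141 and 0.211) and without GFP-positive replicates 1 and 2 (0.0575 and 0.0726), while the log2 fold change stayed between 1.72 and 2.27.

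The Wilms tumour factor genes had few counts. wt1a (ENSDARG00000031420), a zinc finger factor gene of epicardium and kidney, had 7, 12 and 10 counts in the GFP-negative libraries and 0, 0 and 3 in the GFP-positive libraries. The few GFP-positive counts all came from replicate 3, and the groups did not overlap, the GFP-positive libraries being lower. They were lower in this way for 17.6% of all genes tested. That share covers genes above the expression filter, so it is no background for wt1a, and the share among genes at its level was not computed. Counts of 0 were more frequent on the GFP-positive side, with 725 to 1270 tested genes at 0 per library against 4 to 66. Their part in the wt1a difference was not tested. The GFP-negative level was 7.46 times the GFP-positive one, with an exact 95% interval of 2.31 to 38.3 that covers counting error only. wt1a had too few counts for the expression filter and was not tested in the main fit. The alternative fit without an expression filter included it, and 0 members were called lower there.

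wt1b (ENSDARG00000007990), the paralog of wt1a, had 7, 19 and 11 counts in the GFP-negative libraries and 32, 24 and 0 in the GFP-positive libraries. GFP-positive replicates 1 and 2, at 2.48 and 1.55 CPM, were above the GFP-negative libraries, at 0.464, 0.953 and 0.507 CPM. GFP-positive replicate 3 was below them, with a count of 0. Counting error alone would allow up to 0.195 CPM there, the level of 3 counts. In that library 1270 of the genes tested had no count, so the true level of wt1b may have been above this. The log2 fold change of 1.05 ± 1.44 did not pass the test (edgeR adjusted p = 0.830, 0.248 to 0.998 over the alternatives), and it was 1.63 without GFP-positive replicate 3. Its direction was not stable: limma-voom gave -0.35.

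aldh1a2 (ENSDARG00000053493) stood at 16.3, 29.2 and 22.4 CPM in the GFP-negative libraries and at 165, 127 and 66.5 CPM in the 3 GFP-positive ones. The groups did not overlap, and GFP-positive replicate 3 was the lowest of its group, as it was for krt4. aldh1a2 rose 5.26-fold (log2 fold change 2.40 ± 0.38, edgeR adjusted p = 0.0239). The call was lost without GFP-negative replicates 1, 2 and 3 (adjusted p = 0.104, 0.0563 and 0.114) and without GFP-positive replicates 1 and 2 (0.0552 and 0.0688).

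gstm.3 (ENSDARG00000088116), a mu-class glutathione S-transferase gene whose product couples glutathione to reactive compounds, had the smallest SE relative to its log2 fold change among the 8 members tested. It stood at 37.3, 43.5 and 38.0 CPM in the GFP-negative libraries and at 211, 282 and 195 CPM in the 3 GFP-positive ones. The GFP-negative libraries were close to each other, and the lowest GFP-positive library was far above them. gstm.3 rose 5.79-fold (log2 fold change 2.53 ± 0.21, edgeR adjusted p = 0.00427), and its call held in all 15 alternative fits.

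**Figure D2:**
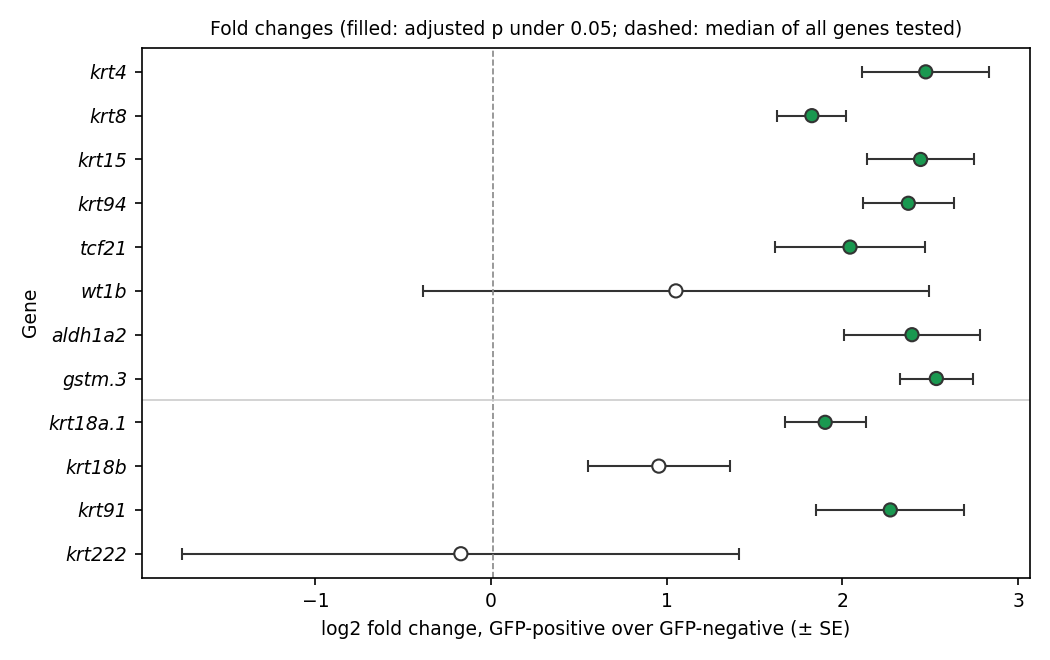
log2 fold change of GFP-positive over GFP-negative libraries with its SE (n = 3 per group) for the 8 members tested, above the line, and the other 4 keratin family genes tested, below it; filled points have an edgeR adjusted p under 0.05, and the dashed line is the median of all genes tested. The 7 members that rose lie between 1.83 and 2.53, and wt1b has the widest error among the members.

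The members varied among the libraries of a group in part alike. Of the 8 tested members, 6 had their lowest GFP-positive level in replicate 3 and 5 their highest in replicate 2, and 6 had their highest GFP-negative level in replicate 2. The same shares over all genes tested were not computed, so this order is not shown to be particular to the members. GFP-positive replicate 3 also had the most tested genes without a count, 1270, and replicate 2 the fewest of its group, 725. Pearson correlations of log2 CPM over the 6 libraries, which share the group difference and the depth of each library, were 0.893 to 0.994 between the 7 members that rose. Those of wt1b with these 7 were 0.0537 to 0.379. With 6 libraries in 2 groups, these values are descriptions.

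Set against tcf21 within a library, the keratin ratios of the groups overlapped. krt8 had 28.8, 27.3 and 22.9 counts per count of tcf21 in the GFP-negative and 30.5, 17.5 and 24.6 in the GFP-positive libraries. The ranges for krt94 were 14.5 to 30.1 and 20.4 to 37.6, those for krt15 4.93 to 8.71 and 8.18 to 10.9, and those for krt4 5.78 to 9.53 and 6.01 to 17.8. The groups overlapped for all 4 keratins and for aldh1a2, whose ratio to tcf21 was 3.62 to 4.55 in GFP-negative libraries and 3.59, 3.81 and 10.2 in the GFP-positive libraries, with GFP-positive replicate 1 the high one. For gstm.3 they did not overlap, at 6.78 to 8.28 and 8.49 to 13.1. Against the cardiomyocyte gene myl7, which fell, tcf21 had 0.130 to 0.260 counts per 1000 in GFP-negative and 1.02 to 2.63 in GFP-positive libraries. These ratios were not tested. Ratios to wt1a and wt1b, with 0, 0 and 3 and with 32, 24 and 0 counts in the GFP-positive libraries, were not taken. The overlap thus holds for tcf21 and is not shown for the other epicardial transcription factor genes.

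**Figure D3:**
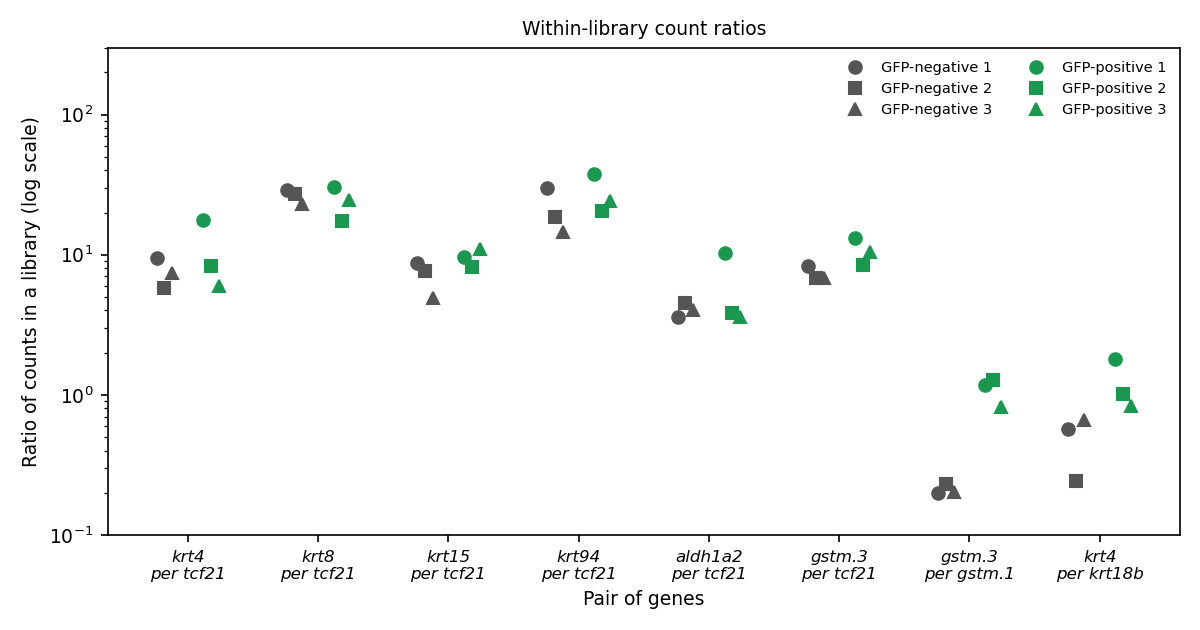
Ratio of the counts of a pair of genes within each library (log scale), for GFP-negative (grey) and GFP-positive (green) libraries. Ratios to tcf21 overlap between the groups for the 4 keratins and aldh1a2, whereas gstm.3 per gstm.1, at 0.200 to 0.230 and 0.812 to 1.28, and krt4 per krt18b, at 0.242 to 0.658 and 0.829 to 1.79, do not.

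The keratin family, taken as 23 symbols in the tables, held 6 genes that rose, 2 that did not pass and 15 with too few counts to test (median log2 fold change of the 8 tested 2.09, against 0.01 for all 13490 genes). Among all genes tested 2.08% were called higher. The 4 member keratins, krt18a.1 and krt91 were the genes that rose. The members were chosen with earlier results of these data known, so the family count and median in part restate that choice. Outside the members, krt18a.1 and krt91 rose (log2 fold change 1.90 and 2.27), and krt18b and krt222 did not pass (0.95 and -0.17). krt18a.1, a type I partner of krt8, stood at 94.5, 90.3 and 74.6 CPM in GFP-negative and at 247, 414 and 309 CPM in GFP-positive libraries (log2 fold change 1.90 ± 0.23, edgeR adjusted p = 0.0104). Its change was close to that of krt8, and krt8 had 1.37 to 1.94 counts per count of krt18a.1 in the GFP-negative and 1.41 to 2.00 in GFP-positive libraries. krt91, a further type I gene, rose from 4.43 ± 1.62 to 21.4 ± 3.07 CPM (SD, n = 3; 2.27 ± 0.42, adjusted p = 0.0321).

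Of the other krt18 genes, krt18b did not pass and krt18a.2 had 0 counts in every library. krt18b stood at 74.9, 153 and 62.6 CPM in GFP-negative and at 160, 269 and 134 CPM in GFP-positive libraries. The groups overlap because GFP-negative replicate 2 was above GFP-positive replicate 3 (log2 fold change 0.95 ± 0.40, edgeR adjusted p = 0.259). The krt18b share of all keratin counts was 17.9 ± 5.65% in GFP-negative and 8.94 ± 1.54% in GFP-positive libraries (SD, n = 3). The shares of krt8, at 27.6 ± 2.64% and 25.0 ± 1.97%, and of krt18a.1, at 16.7 ± 2.06% and 15.8 ± 3.00%, lay within the spread between libraries. krt94 held 21.3 ± 4.09% and 28.1 ± 2.23%. Keratin genes called higher numbered 2 without GFP-negative replicate 1, 1 without GFP-negative replicate 3 and 6 without GFP-positive replicate 3.

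**Figure D4:**
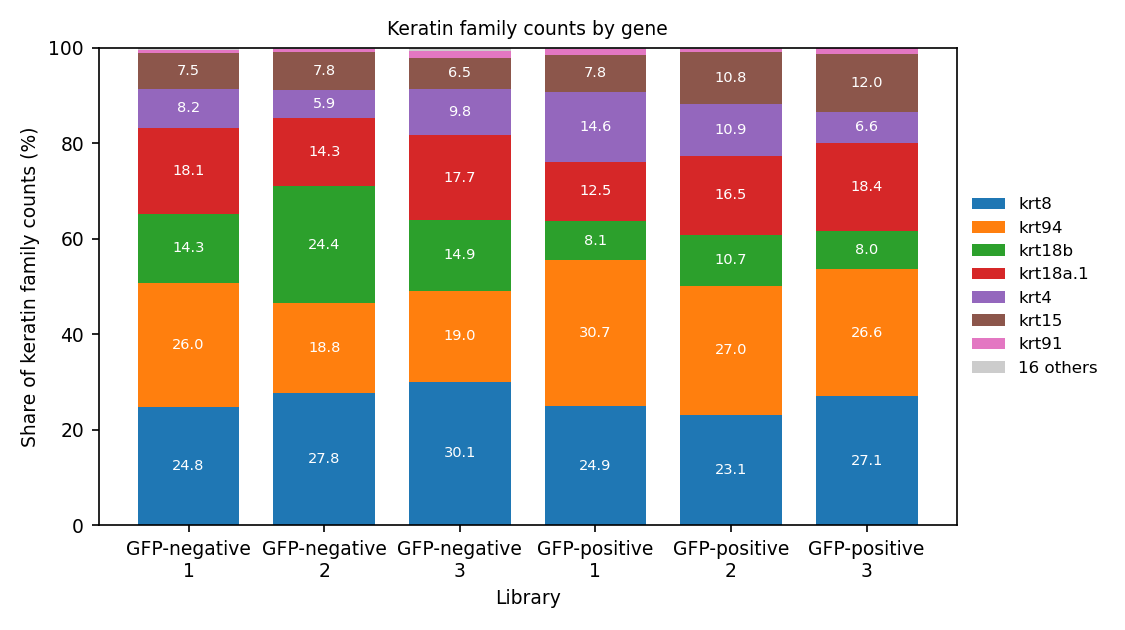
Share of keratin family counts (%) by gene in each of the 6 libraries, with 7 named genes and the other 16 as 1 class. The named genes hold 99.4% to 99.9% of keratin counts in each library, and krt18b takes 14.3% to 24.4% of GFP-negative and 7.99% to 10.7% of GFP-positive keratin counts.

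Some keratins with many counts had neighbours with few. In the gene order of the RefSeq annotation of GRCz12tu, used here for neighbours only, krt8 lies between krt5 and krt18a.1, with 0 genes between krt8 and either. krt5 had 0 to 8 counts in a library. krt94 and krt15 have only krt98 between them and krt93 and krt99 on their outer sides. krt98 had at most 3 counts and krt99 had 0 in every library, while krt93 had 1 to 4 counts in 5 libraries and 63 in GFP-positive replicate 2. krt4 and krt18b have 1 gene between them, zgc:158846, with 0 to 5 counts. krt91 lies next to krt17, which had 2 counts over all 6 libraries. Keratins are similar in sequence, and how reads shared between copies were counted is not given in the sources used here. Each keratin's count is uncertain to that degree.

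The neighbouring mu-class genes had smaller fold changes than gstm.3; the differences between the genes were not tested. gstm.1 (ENSDARG00000042533) stood at 186, 189 and 189 CPM in GFP-negative and at 180, 221 and 240 CPM in GFP-positive libraries, with overlap (log2 fold change 0.19 ± 0.16, edgeR adjusted p = 0.685). gstm.2, which lies between gstm.1 and gstm.3, had higher values in all GFP-positive libraries, at 18.7 to 34.0 against 5.17 to 10.6 CPM, and did not pass (1.69 ± 0.41, adjusted p = 0.0643). Of 20 tested glutathione S-transferase genes, gstm.3 and the theta-class gene gstt1b rose, 0 fell and 18 did not pass (median log2 fold change -0.04). The share called higher was 2.08% among all genes tested. gstt1b rose from 9.50 ± 3.06 to 42.1 ± 14.0 CPM (2.15 ± 0.37, adjusted p = 0.0280). The genes of the family with the most counts per library, not corrected for length, were gstr and gstp1. They stood at 1013 ± 96.3 and 648 ± 103 CPM and at 369 ± 96.5 and 350 ± 57.3 CPM, and neither passed (adjusted p = 0.0763 and 0.935). The gstm genes are close copies, and shared reads could have been split between them.

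In the retinoic acid pathway most log2 fold changes were positive, and few genes were called. Of 13 tested, aldh1a2, itself a member, and rdh10a rose, 0 fell and 11 did not pass (median 1.00, 11 positive). Among all genes tested 2.08% were called higher. The other 11 matched genes had too few counts to test. In 6 of the 13, aldh1a2 included, all GFP-positive libraries were above all GFP-negative ones, which held for 12.1% of all genes tested. The summed level of the 24 matched genes was 138 to 153 CPM in GFP-negative and 320 to 485 CPM in GFP-positive libraries. rdh10a, whose enzyme makes the retinaldehyde that aldh1a2's product oxidises, stood at 3.64, 4.96 and 5.40 CPM in GFP-negative and at 25.2, 30.1 and 32.8 CPM in GFP-positive libraries (log2 fold change 2.65 ± 0.34, edgeR adjusted p = 0.0112). The groups were far apart for its spread. The retinol carrier gene rbp4 and cyp26b1, whose enzyme degrades retinoic acid, had log2 fold changes of 2.18 ± 0.60 and 1.89 ± 0.50. Neither passed the threshold (edgeR adjusted p = 0.0890 and 0.0798). Of these 13 genes 0 were called higher without GFP-negative replicate 1, 2 or 3, 1 without GFP-positive replicate 1 or 2, and 3 without GFP-positive replicate 3; DESeq2 called 6.

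Of 12 tested epicardium markers beyond the members, anxa2a and fn1b rose, 0 fell and 10 did not pass (median 1.42). Among all genes tested 2.08% were called higher. In 5 of the 12 the groups did not overlap, all with the GFP-positive libraries higher, which held for 12.1% of all genes tested. It also held for 15 of 18 endocardium and endothelium markers and 11 of 16 fibroblast markers. For erythrocyte markers it was 6 of 12, and for macrophage markers 0 of 17. anxa2a, an annexin gene, stood at 220, 137 and 152 CPM in GFP-negative and at 1061, 1182 and 820 CPM in GFP-positive libraries (log2 fold change 2.59 ± 0.24, edgeR adjusted p = 0.00526). The fibronectin gene fn1b rose from 26.1 ± 10.9 to 106 ± 33.2 CPM (2.02 ± 0.38, adjusted p = 0.0355). podxl, a sialomucin gene, had 0.75 ± 0.32 and did not pass (adjusted p = 0.255). The summed level of the 13 matched epicardium markers was 308 to 324 CPM in GFP-negative and 1149 to 1607 CPM in GFP-positive libraries. Without anxa2a the sums were 92.3 to 172 and 289 to 424 CPM, also without overlap. The number of these epicardium markers called higher was 1 when any single library other than GFP-positive replicate 3 was left out, and 3 without that library.

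tbx18, a T-box gene of epicardium, had 40, 98 and 67 counts in GFP-negative libraries and 175, 117 and 1 in GFP-positive replicates 1, 2 and 3 (log2 fold change 0.99 ± 1.31, edgeR adjusted p = 0.824). As with wt1b, GFP-positive replicates 1 and 2 were above the GFP-negative libraries and replicate 3 was near 0, although tcf21 had 285 counts in that library. sema3d, a semaphorin gene, was instead highest in replicate 3, with 17, 167 and 384 counts in GFP-positive replicates 1, 2 and 3 (3.12 ± 1.03, adjusted p = 0.147). upk3b, a mesothelial uroplakin gene, had 1 count over all 6 libraries.

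Genes of epithelial junctions and identity with enough counts to test were not called. Of 8 tested epithelial junction and identity genes, 0 rose, 0 fell and 8 did not pass (edgeR; median 0.65). The other 16 of the 24 matched genes had too few counts to test. The summed level of the 24 genes was 39.2 to 53.0 CPM in GFP-negative and 60.6 to 104 CPM in GFP-positive libraries. Within that sum f11r.1, the gene with the highest mean, stood at 8.28 to 19.9 and 30.5 to 49.6 CPM. The E-cadherin gene cdh1 had 18, 6 and 22 counts in GFP-negative and 0, 1 and 3 in GFP-positive libraries, and epcam, an epithelial adhesion gene, had 0, 1 and 39 and 0, 11 and 0; neither was tested. The junctional adhesion gene f11r.1 came nearest, with a log2 fold change of 1.74 ± 0.42 (edgeR adjusted p = 0.0649). elf3, also in this list, went the other way, with 16, 14 and 18 counts in GFP-negative and 0, 0 and 1 in GFP-positive libraries. Its log2 fold change was -4.86 ± 1.23 (edgeR adjusted p = 0.0712). Only its GFP-negative counts were high enough for the expression filter, so this value is a description. The part of the many genes without counts in GFP-positive libraries was not tested here either. Of the 8 log2 fold changes, 4 were positive. Of 10 tested genes for desmosomes and keratin linkers, 10 did not pass (median 0.15). In 3 of the 10, perp among them, all GFP-positive libraries were above all GFP-negative ones, and in 1 they were below. Among all genes tested these shares were 12.1% and 17.6%. perp and pkp3b, those with the most counts, not corrected for length, stood at 99.9 ± 9.88 and 127 ± 17.9 CPM and at 119 ± 5.60 and 135 ± 44.2 CPM (adjusted p = 0.384 and 0.831).

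Other intermediate filament genes were mostly not called: of 7 tested, 0 rose, 1 fell and 6 did not pass (median 0.07). The share called lower was 2.13% among all genes tested. synm, the synemin gene of muscle filaments, stood at 103, 106 and 112 CPM in GFP-negative and at 48.3, 41.5 and 63.1 CPM in GFP-positive libraries, and fell (log2 fold change -1.07 ± 0.21, edgeR adjusted p = 0.0380). The desmin gene desma averaged 628 ± 90.5 and 415 ± 110 CPM, without passing (-0.60 ± 0.23, adjusted p = 0.217). vim, the vimentin gene of mesenchymal cells, was 5.50 to 7.42 CPM in GFP-negative and 12.2 to 36.8 CPM in GFP-positive libraries and did not pass (1.90 ± 0.48, adjusted p = 0.0731).

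Of 4 tested epidermis markers, icn and krt91 rose and 2 did not pass. krt91 is also counted in the keratin family. The share called higher was 2.08% among all genes tested. icn, an S100-type calcium-binding protein gene of fish epithelia, rose from 46.0 ± 14.2 to 275 ± 134 CPM (log2 fold change 2.58 ± 0.43, edgeR adjusted p = 0.0259). tp63, the p63 factor gene of basal epidermis, stood at 10.1 ± 0.863 and 8.78 ± 7.48 CPM (adjusted p = 0.957). The other 15 epidermis symbols found in the tables had too few counts to test, anxa1c with 0 in every library. Of these, krtt1c19e had 8, 5 and 12 and ponzr6 5, 6 and 5 counts in GFP-negative libraries, and both had 0 in each GFP-positive one. cyt1, with 0, 1 and 1 counts against 6, 0 and 4, had more in the GFP-positive group. The summed level of the 19 matched markers, most of it icn, was 53.4 to 74.0 CPM in GFP-negative and 175 to 441 CPM in GFP-positive libraries.

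Markers of endocardium, fibroblasts and erythrocytes had higher summed levels in all GFP-positive libraries than in the GFP-negative ones. As a background to the counts called, 2.08% of all genes tested were called higher and 2.13% lower. Of 18 tested endocardium and endothelium markers 7 rose and 0 fell (median 1.94), egfl7 by a log2 fold change of 1.92 ± 0.25 (edgeR adjusted p = 0.0123). Their summed level was 187 to 326 CPM in GFP-negative and 673 to 1300 CPM in GFP-positive libraries. Of 16 fibroblast markers 4 rose and 0 fell (median 1.68; summed 212 to 441 and 892 to 1341 CPM), col1a1b by 2.11 ± 0.32 and sparc by 2.16 ± 0.28 (adjusted p = 0.0195 and 0.0125). Of 12 erythrocyte markers 4 rose (median 1.50; summed 596 to 716 and 1758 to 2696 CPM). Of 9 mural and smooth muscle markers 2 rose and 0 fell (median 0.48; summed 260 to 416 and 642 to 1099 CPM). Without acta2, which carried most of that sum in GFP-positive libraries, the sums overlapped, at 104 to 144 and 112 to 179 CPM, and abcc9, notch3 and pdgfrb had their 3 GFP-positive libraries below the GFP-negative ones without passing the test. Of 8 lymphocyte and thrombocyte markers 1 rose, fn1b, which is also in the epicardium list (median 1.28; summed 29.1 to 64.8 and 97.5 to 209.8 CPM, and 13.6 to 27.5 and 25.6 to 71.6 CPM, with overlap, without fn1b). Of 17 macrophage markers 0 rose and 0 fell (median 0.08), and their sums overlapped. In replicates 1, 2 and 3 the macrophage sums were 546, 1844 and 550 CPM for GFP-negative and 537, 2121 and 752 CPM for GFP-positive libraries. Replicate 2 was thus the highest in both groups. Of the markers in these 6 lists, 0 that matched a row had 0 counts in all 6 libraries. Of 18 cardiomyocyte markers 9 fell and 1 rose (median -0.81; summed 84825 to 111756 and 39114 to 50083 CPM). The part of these cell types, of the mitochondrially encoded share and of the genes without counts in the changes of keratins and epicardial genes was not tested. In bulk samples, more cells of a type and more RNA per cell cannot be told apart.

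**Figure D5:**
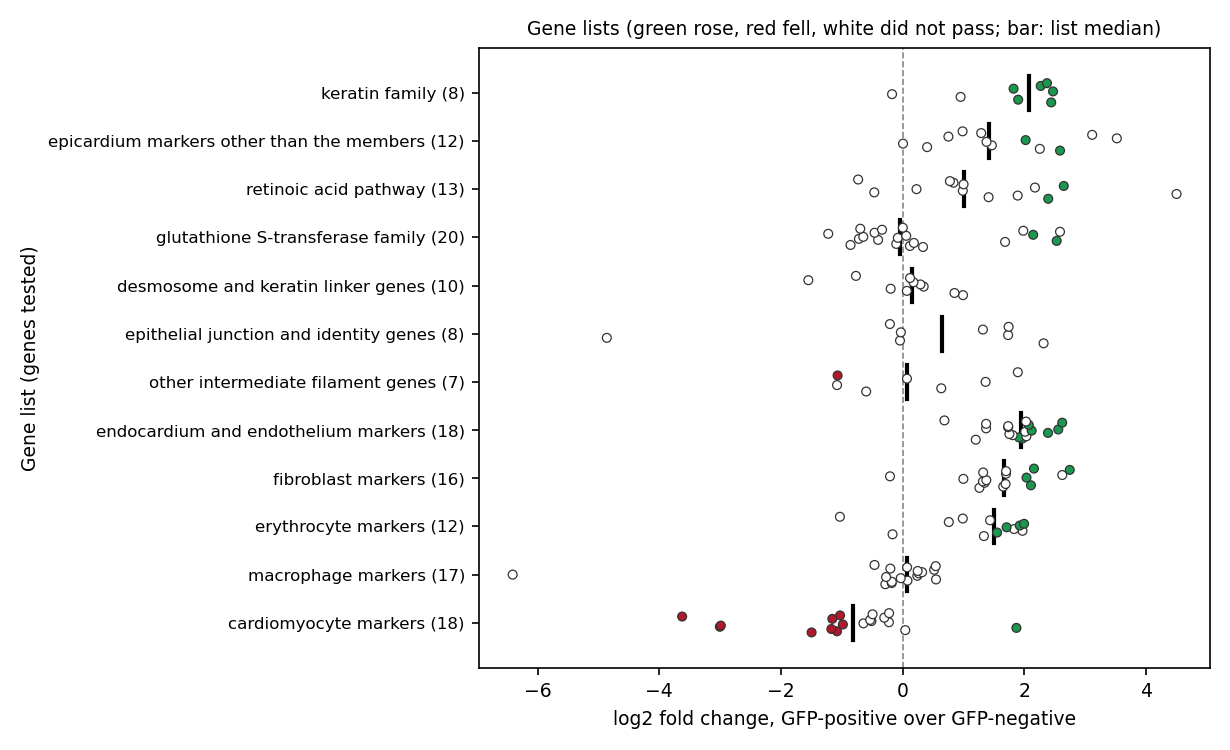
log2 fold change of GFP-positive over GFP-negative libraries for each tested gene of 12 lists, by row, with the number tested in brackets; green points rose, red points fell, white points did not pass, bars are list medians and the dashed line is the median of all genes. The keratin family median, which includes the member keratins, is 2.09. The medians are 1.42 for epicardium markers other than the members, 0.15 for desmosome and keratin linker genes, 1.94 for endocardium and -0.81 for cardiomyocyte markers.

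The genes with the most similar profile over the 6 libraries were sought among the 5479 named genes whose mean reached 10 CPM. tcf21 was nearest to adma (Pearson r = 0.997), the adrenomedullin gene, fabp11a (0.997), a fatty acid binding protein gene, and capn2b (0.996), a calpain gene. aldh1a2 was nearest to tuba8l3 (0.992), the forkhead gene foxc1b (0.991) and mllt11 (0.990). krt8 was nearest to ndst1b, the midkine gene mdka and crip1 (0.999 each), krt15 to sec11a (1.00), grapa (0.998) and cox4i2 (0.997), and krt94 to egr3, nap1l4b and mt-co3 (0.993, 0.993 and 0.991). krt4 was nearest to cdr2l (0.989), snx25 and tor1 (0.986 each), gstm.3 to fhl3b (0.999), pgrmc1 (0.998) and snap25a (0.997), and wt1b to cmtm6 (0.995), nid1a (0.994) and rnf145a (0.991). Profiles over 6 libraries are rarely unique: 44 to 175 of the 5479 genes had r above 0.95 with a given member.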

How the data were processed

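Each library came with a deposited table of raw gene counts, titled total counts in the file headers and holding whole numbers. No aligner, counting rule, genome build or annotation is given in the sources used here. Per the labels' protocols, tissue was digested with collagenase (3 mg/ml, 30 min), and cDNA was amplified with SMART-Seq v4 and made into libraries with a directional kit; no molecular identifiers are named, so counts include amplification copies and intervals cover counting error only. The 2 fractions were compared in edgeR 4.0.16 (R 4.3.3) with filterByExpr, TMM and a robust quasi-likelihood F test, with group as the term. Benjamini-Hochberg adjustment was over 13490 genes, with a threshold of 0.05. The fit was also run on simulated counts with the same spread setting for every gene. That check does not cover the genes without counts seen in the GFP-positive libraries. The SE is the log2 fold change divided by the square root of F. Correlations used log2 CPM with a prior count of 2. DESeq2 1.42.0, limma-voom (limma 3.58.1), other factors and filters, a replicate block and leaving out each library were alternatives.

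The members and lists were chosen with earlier results of these data known; 225 of 245 list entries matched a row. Named genes were the members, up to 4 called and the 2 genes of a list with the highest mean CPM, and the 3 nearest profiles of each member, printed where a result turns on them; the other list genes printed, and the gene ratios, were chosen after their values were seen. All 9 members matched the RefSeq gene table (GRCz12tu) by symbol. No nucleotide or protein sequence was used here.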

Additional observations from a re-analysis of the deposited data

How the results depend on the processing

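All genes called numbered 568, and 2166 with DESeq2; 44 to 1018 were called when 1 library was left out. Members called higher numbered 7, and 2 to 7 with 1 library left out; 0 members were called lower in any of the 15 alternative fits. Keratin family genes called higher numbered 6, and 1 to 6 with 1 library left out. The other epicardium markers called higher numbered 2; they were 1 without a composition factor, 5 with DESeq2 and 1 to 3 with 1 library left out. Fits with a library left out have fewer samples. limma-voom reversed wt1b (-0.35, adjusted p = 0.927); the cause was not tested. tcf21 was also not called without a composition factor (adjusted p = 0.0695), with limma-voom (0.0575) or with the replicate block (0.0667). Over all genes the median log2 fold change was -0.11 with upper-quartile factors, -0.16 without a composition factor, -0.36 with limma-voom and -0.29 with the replicate block, and the 7 members that rose stayed positive in each. Called genes split 280 higher to 288 lower, 258 to 450 with upper-quartile factors, 196 to 507 without a composition factor and 294 to 509 with limma-voom. The titles number replicates in both groups, but nothing says that a number marks a shared fish or day. Deviations of same-numbered libraries correlated at 0.131, 0.187 and 0.0922, each library correlating best with its own number, which is a hint from the data only. With the replicate block, 572 genes and 6 members were called. The call of krt94 and that of gstm.3 held in all 15 alternative fits. wt1a and wt1b had 0 to 32 counts per library, the fewest of the members.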
